A study of Mus musculus with 6 samples.

Results

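The genes of the cytosolic RNA and DNA sensors were followed in mouse RAW264.7 macrophages, an established macrophage-like cell line, on 2 implant surfaces. The list of 10 genes held the RNA sensors Ifih1 (MDA5), Ddx58 (RIG-I) and Dhx58 (LGP2), their adaptor Mavs, the DNA sensor Cgas (listed as Mb21d1) and its adaptor Sting1 (listed as Tmem173). It also held Zbp1, the kinases Tbk1 and Ikbke, and the DNA exonuclease Trex1. By symbol or synonym in the platform annotation, 9 of these 10 were matched to probe sets, 1 each, among 19505 genes tested. Trex1 was not analysed here. Cells were grown for 3 days either on pristine polyetheretherketone (PEEK), an unmodified implant polymer that served as control, or on a modified PEEK surface, with 3 samples each. The labels do not say what the modification was, and no agent or genetic alteration is named for either group. Each sample was hybridised to 1 Affymetrix expression array. The labels do not tie the 3 samples of a surface to separate experiments, so the p-values cover only how these arrays vary, which may be technical variation.

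Cytosolic sensors tell a cell that nucleic acid is where it should not be. Ifih1 and Ddx58 bind viral-type RNA and pass the signal to Mavs on the mitochondrion, while Cgas binds DNA and makes cGAMP, a cyclic dinucleotide that activates Sting1 on the endoplasmic reticulum. Both routes meet at the kinases Tbk1 and Ikbke, which phosphorylate the transcription factor Irf3 and so start interferon production. Interferon in turn raises several of the sensors through the interferon-stimulated response element, a DNA site read by Stat and Irf factors.

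The core of that element was searched for in the RefSeq promoter windows of GRCm38.p6, which run from 250 bases before to 50 bases after a transcript's start. The core was written as GAAANNGAAA, or TTTCNNTTTC on the opposite strand, with overlapping matches allowed. It was present in 3.44% of 32851 windows and, counted by gene, in 3.94% of the 15691 tested genes that had a window. Of the 9 measured sensor genes, 6 had a window, and the core was found in those of Ifih1 and Ddx58 and not in those of Mavs, Cgas, Tbk1 and Ikbke. No window was found under the names Dhx58, Sting1 and Zbp1, so these genes were not searched. Of them, Sting1 and Zbp1 were called lower, as given below. The stretches of 30 bases below hold the core in capitals. They show Ifih1 and Ddx58, then 3 pathway genes that fell with them, then Eif2ak2, an RNA-activated kinase gene with the core that did not pass the test.
Ifih1: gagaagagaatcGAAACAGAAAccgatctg
Ddx58: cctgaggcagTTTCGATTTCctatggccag
Isg15: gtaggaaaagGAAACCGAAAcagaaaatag
Stat2: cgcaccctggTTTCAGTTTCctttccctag
Mndal: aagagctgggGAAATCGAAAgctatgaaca
Eif2ak2: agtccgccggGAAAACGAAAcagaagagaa

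The Ifih1 stretch lies at chr2:62646206-62646235 on the minus strand, with the first base of the core at base 33 of the transcript, and the Ddx58 stretch at chr4:40239804-40239833 on the minus strand, with the core at base 3. The Isg15 stretch is chr4:156200871-156200900 on the minus strand, and the core shown there overlaps another on each side. The Stat2 stretch is chr10:128270266-128270295 on the plus strand, the Mndal stretch chr1:173880204-173880233 on the minus strand and the Eif2ak2 stretch chr17:78882535-78882564 on the minus strand. A match describes these letters and does not show that a factor binds.

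The RNA sensors Ifih1 and Ddx58, the adaptor Sting1 and Zbp1 were lower on modified PEEK, the DNA sensor Cgas was higher, and Dhx58, Mavs, Tbk1 and Ikbke did not pass. Ddx58 fell 1.84-fold and Ifih1 1.75-fold, Zbp1 1.538-fold and Sting1 1.498-fold, while Cgas rose 1.57-fold. Of the 9 genes, 1 was higher and 4 lower at an adjusted p under 0.05 by limma over all genes, beside 10.4% of all genes in either direction (5.24% higher and 5.15% lower). The arrays of the surfaces did not overlap for 6 of the 9, beside 28.8% of all genes. The median change of the 9 was -0.51 on the log2 scale, against 0.0088 for all genes. In a bulk sample, fewer cells of a type and less RNA per cell cannot be told apart.

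Array medians over genes lay between 4.98 and 5.10 log2, and precision is limited by having 3 arrays per surface. The macrophage identity was checked on 10 markers, of which 9 were above 3.72 log2, the background set by olfactory and vomeronasal receptor genes. Csf1r was at 11.18 on pristine and 11.43 on modified PEEK, and Spi1 at 11.95 and 11.85. Within this list Itgam and Fcgr1 fell, by 0.59 and 0.85, and Adgre1 rose by 0.54. Mertk passed as higher at signals below background on both surfaces. None of the markers of T and NK cells (6 measured, 5 below background), B cells (4, of which 3), neutrophils (5, of which 3), fibroblasts and osteoblasts (4, of which 1) or epithelium and endothelium (6, of which 3) passed the test by limma. At an unadjusted p under 0.05, 2 of these 25 were higher and 1 lower, and with an ordinary t statistic 0 passed after adjustment. Of 5 markers of plasmacytoid dendritic cells, Tcf4 rose by 0.48, while the defining gene Siglech was below background at 3.02 on both surfaces. The mean log2 signal of these 5 was 5.34 to 5.39 on pristine and 5.33 to 5.50 on modified arrays. Their part in the sensor results was not tested.

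Added poly-A spike RNA averaged 0.25 log2 lower on modified PEEK, and the hybridisation spikes averaged 0.17 lower. The poly-A averages overlapped, at 6.78 to 7.05 on pristine and 6.55 to 6.81 on modified arrays. Why both kinds of spike were lower was not tested. Scaling the arrays to the poly-A spikes moved the median change of all genes to 0.26. It moved the calls over all genes from 1023 higher and 1004 lower to 1575 higher and 290 lower. Such scaling shifts all genes of an array alike. Relative to the median change of all genes on that scale, Zbp1 was at -0.63 and Sting1 at -0.59. The SE of the change of Zbp1 went from 0.096 to 0.17. A call lost on the spike scale therefore does not by itself mark that gene as less stable than others. Leaving out 1 array at a time gave 594 to 903 higher and 548 to 1048 lower. Dropping replicate 1, 2 or 3 of pristine PEEK left 633, 654 and 594 higher and 608, 585 and 548 lower. Dropping replicate 3 of modified PEEK left 673 and 627.

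**Figure D1:**
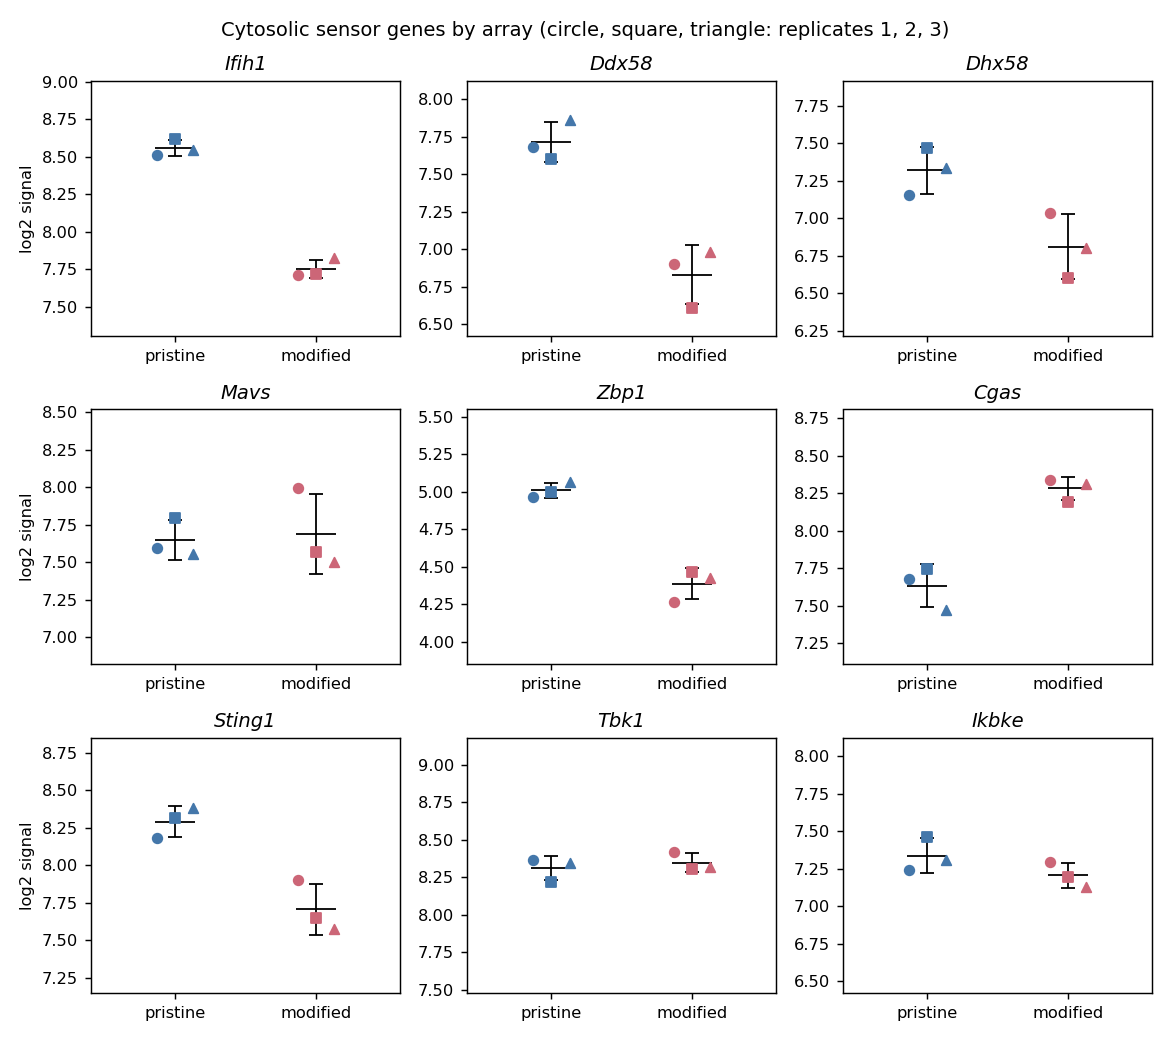
Log2 signal (y axis, each panel spanning the same 1.7 log2 units) of the 9 measured sensor genes on pristine (blue) and modified (red) PEEK (x axis), with a point per array, a bar for the mean and whiskers for the SD of 3 arrays. Ifih1, Ddx58, Dhx58, Zbp1 and Sting1 are lower on every modified array than on every pristine one, Cgas is higher on every one, and Mavs, Tbk1 and Ikbke overlap.

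Ifih1 encodes MDA5, which recognises long RNA duplexes such as those of picornaviruses. Its log2 signals were 8.51, 8.61 and 8.55 on pristine PEEK and 7.71, 7.72 and 7.82 on modified PEEK. The 3 arrays of each surface lay within 0.10 and 0.11 of each other, and the nearest arrays of the surfaces were 0.69 apart. The change was -0.81 ± 0.09 (SE, n = 3 per surface; limma adjusted p = 0.00108), at rank 303 from the lowest of 19505 changes.

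Ddx58 encodes RIG-I, which recognises short RNA with a triphosphate at its end. Its signals were 7.678, 7.599 and 7.858 on pristine and 6.898, 6.609 and 6.980 on modified PEEK, so every modified array lay below every pristine one, with a gap of 0.62. It fell by 0.88 ± 0.13 (SE, n = 3 per surface; limma adjusted p = 0.00355), at rank 239 from the lowest. Scaled to the spikes, Ifih1 fell by 0.56 (adjusted p = 0.0437) and Ddx58 by 0.64 (adjusted p = 0.0245).

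Dhx58 encodes LGP2, the relative of both that lacks the caspase recruitment domains and tunes their signal. Its signals were 7.15, 7.47 and 7.33 on pristine PEEK and 7.03, 6.60 and 6.80 on modified PEEK. The groups did not overlap, but the highest modified array, replicate 1, was 0.12 below the lowest pristine one. The change was -0.51 with a 95% interval of -0.82 to -0.19 before adjustment, and it did not pass (limma adjusted p = 0.0552). Without modified PEEK replicate 1 it passed at -0.62 (adjusted p = 0.0321), and over all alternatives the adjusted p ran from 0.00320 to 0.271.

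Mavs encodes the mitochondrial adaptor onto which both RNA sensors dock. Its signals were 7.596, 7.798 and 7.552 on pristine and 7.998, 7.568 and 7.501 on modified PEEK, with both the highest and the lowest array on the modified surface. The change of 0.0398 had a 95% interval of -0.30 to 0.38 and did not pass (limma adjusted p = 0.918). That interval does not reach the changes of Ifih1 or Ddx58. On the same arrays, where array-wide scaling cancels, the log2 signal of Ifih1 relative to Mavs was lower on modified PEEK by a mean of 0.85. That of Ddx58 was lower by 0.92, that of Dhx58 by 0.55 and that of Zbp1 by 0.66. Each equals the gene's change minus that of Mavs and is a description, not a further test.

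Zbp1 encodes a sensor of left-handed nucleic acid that can start necroptosis. Its signals were 4.97, 5.00 and 5.06 on pristine and 4.27, 4.47 and 4.43 on modified PEEK, lower on all 3 modified arrays and nearer to the background of 3.72 than any other sensor gene. It fell by 0.62 ± 0.10 (SE, n = 3 per surface; limma adjusted p = 0.00507). The call held in each fit without 1 array (adjusted p up to 0.0306) but not on the spike scale, where the change was -0.37 (adjusted p = 0.172).

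Cgas encodes the enzyme that makes cGAMP on binding DNA. Its signals were 7.68, 7.75 and 7.47 on pristine and 8.34, 8.19 and 8.31 on modified PEEK, with every modified array above every pristine one, with a gap of 0.45. The rise was 0.65 ± 0.11 (SE, n = 3 per surface; limma adjusted p = 0.00670), and Cgas was the only one of the 9 to pass as higher. Scaled to the spikes it was 0.90 (adjusted p = 0.00431), and without 1 array it stayed between 0.57 and 0.71 with an adjusted p of at most 0.0346.

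Sting1 encodes the receptor for cGAMP. Its signals were 8.18, 8.31 and 8.38 on pristine and 7.90, 7.65 and 7.58 on modified PEEK, without overlap and in the direction opposite to Cgas, with a gap of 0.28. It fell by 0.58 ± 0.12 (SE, n = 3 per surface; limma adjusted p = 0.0160). It no longer passed when pristine PEEK replicate 2 (adjusted p = 0.0618), pristine PEEK replicate 3 (0.0727) or modified PEEK replicate 3 (0.0656) was dropped, with an ordinary t statistic per gene (0.0692) and on the spike scale (-0.34, adjusted p = 0.185).

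The log2 ratio of Cgas to Sting1 within an array was -0.50, -0.57 and -0.91 on pristine and 0.44, 0.55 and 0.74 on modified PEEK. A ratio of signals from different probe sets has no absolute meaning, but its shift of 1.23 between the surfaces does not depend on how the arrays are scaled. This pair was chosen after the values were seen, so the shift is a description.

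Tbk1 and Ikbke encode the kinases at which both routes meet. Tbk1 was at 8.36, 8.22 and 8.35 on pristine and 8.42, 8.31 and 8.32 on modified PEEK, and its arrays overlapped. Its change of 0.0380 had a 95% interval of -0.18 to 0.25 (limma adjusted p = 0.873). Ikbke, the form of the kinase that many cells induce, was at 7.24, 7.46 and 7.31 on pristine and 7.30, 7.19 and 7.13 on modified PEEK. Its arrays overlapped too, and the change of -0.13 had a 95% interval of -0.37 to 0.10 (limma adjusted p = 0.519). Scaled to the spikes it was 0.12, so its direction is not settled.

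**Figure D2:**
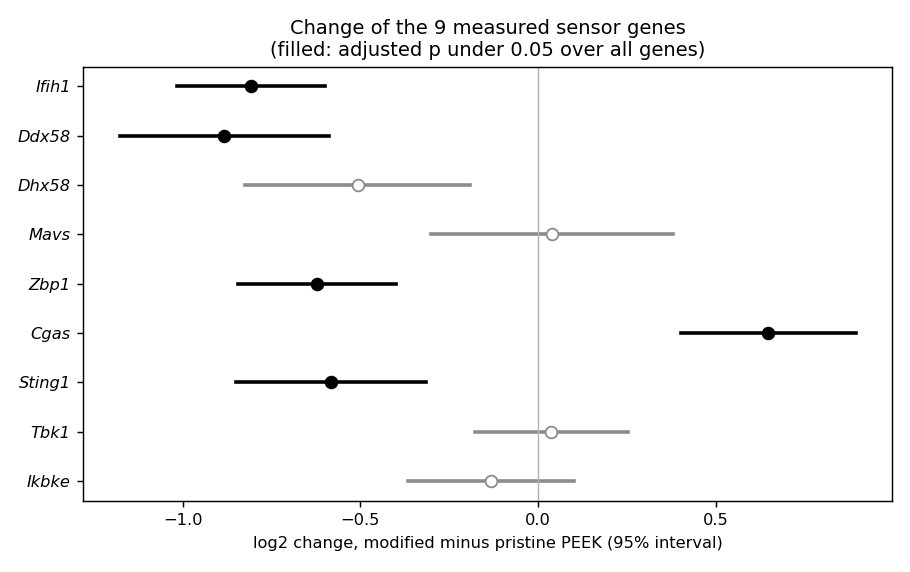
Log2 change, modified minus pristine PEEK (x axis), of each measured sensor gene (y axis), with its 95% interval before adjustment. Filled points pass at an adjusted p under 0.05 over all genes: Ifih1, Ddx58, Zbp1 and Sting1 to the left of 0 and Cgas at 0.65 to the right.

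Within the modified surface, replicate 1 had the highest signal of Dhx58, Mavs, Sting1, Cgas, Tbk1 and Ikbke, the lowest of Ifih1 and Zbp1, and the middle one of Ddx58. Correlations over the 6 arrays were also taken after the surface means were removed. The largest in size among all pairs were 0.79 for Dhx58 with Mavs, 0.78 for Mavs with Sting1, 0.83 for Mavs with Ikbke and -0.84 for Mavs with Zbp1. Modified PEEK replicate 1 lay farthest from its surface mean for Mavs (0.31), Dhx58 (0.22), Sting1 (0.19) and Zbp1 (-0.12), but not for Ikbke. How far these correlations rest on that array was not tested. For Ifih1 with Ddx58 the correlation after the means were removed was 0.21, so their correlation of 0.96 without that step rested on the difference between surfaces. All of these come from the same 6 arrays, with 4 degrees of freedom once the means are removed.

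Among 9744 other genes above the median signal, the most alike in pattern were named by the highest Pearson correlation over the 6 arrays. Each is the top of a long search over arrays that share the surface difference. Ddx58 was closest to Rsad2, an interferon-stimulated antiviral enzyme gene (r = 0.999, change -1.21), and to Sccpdh (0.998). Ifih1 was closest to the cyclin gene Ccnd2 (0.999) and the iron exporter gene Slc40a1 (0.998), which fell by 2.26 and 2.85. Cgas was closest to Dhx9, a nuclear RNA helicase gene (0.999, change 0.35, limma adjusted p = 0.0505), and to Rfx5 (0.999), a regulator of MHC class II genes. Sting1 was closest to Rhog and Septin9 (0.998 each), Zbp1 to Pla2g5 (0.997) and Acsbg1 (0.996), and Dhx58 to Gtf3c6 (0.999) and Galnt2 (0.997). For Mavs, Tbk1 and Ikbke the highest values were 0.996, 0.992 and 0.989.

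Of 27 other sensors of nucleic acid measured, 4 were lower and 1 higher, with a median change of 0.11. The change was above 0 for 16 of them and below 0 for 11. By limma at an unadjusted p under 0.05, 9 were higher and 7 lower, with no share of all genes counted at that threshold to set beside them. The PYHIN genes Ifi209 (-1.48), Ifi204 (-0.92) and Mndal (-0.84), relatives of human IFI16 that bind DNA, fell with limma adjusted p-values of 0.00125, 0.00247 and 0.00154. These genes lie among near-identical copies, so their probe sets may share signal. Zc3hav1, the zinc-finger antiviral protein gene that binds CpG-rich RNA, fell by 0.63 (limma adjusted p = 0.0212), and did not pass with replicate 1 or 3 of pristine PEEK dropped (adjusted p up to 0.0822) or on the spike scale (-0.39, adjusted p = 0.163). Aim2, the DNA sensor of the inflammasome (-0.12), Eif2ak2 (-0.30) and the endosomal RNA sensor gene Tlr3 (-0.31) did not pass. Tlr8 rose from 5.19 ± 0.32 to 6.53 ± 0.11 (SD, n = 3; 1.34, limma adjusted p = 0.00142), while Tlr7 (0.32) did not pass (limma adjusted p = 0.0534). The number higher was 3 to 8 under 9 of the alternatives, such as 7 with an intensity trend in the variance.

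Of 20 adaptor, scaffold and transcription factor genes, 4 were lower and 0 higher, with a median change of -0.0540. Irf7, the interferon-inducible factor that amplifies interferon production, fell from 8.74 ± 0.17 to 7.15 ± 0.37 (SD, n = 3; -1.59, limma adjusted p = 0.00127). Irf3, the factor that Tbk1 phosphorylates, was at 7.19 ± 0.08 and 7.32 ± 0.09 (SD, n = 3) and did not pass (0.13, limma adjusted p = 0.509). Ikbkg, encoding the regulatory subunit of the IkB kinase complex (-0.71), Tbkbp1, a Tbk1-binding scaffold gene (-0.50), and Rela (-0.34) were the others that fell, and Tank (-0.25) did not pass. With replicate 1 of pristine PEEK dropped 2 were lower, with replicate 2 or 3 of it dropped 1 was, and scaled to the spikes 1 was. Irf7 kept its call in each of the 6 fits without 1 array. Ikbkg did not pass with replicate 2 or 3 of pristine PEEK dropped, Tbkbp1 with replicate 1, 2 or 3 of it dropped, and Rela with any 1 array dropped. At an unadjusted p under 0.05, and with an ordinary t statistic, the number higher was also 0.

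Regulators of the sensors moved both ways. Of 38 measured, 6 were lower and 4 higher, with a median of -0.0325. Usp18, the protease that strips ISG15 and restrains interferon signalling, fell by 1.27 (limma adjusted p = 0.000802), the ubiquitin-like modifier gene Isg15 by 1.09 (limma adjusted p = 0.00216), to 3.77, next to the background, and the ligase gene Herc6 by 0.94 (limma adjusted p = 0.00428). Trim25, a ubiquitin ligase that activates RIG-I, fell by 0.52 (limma adjusted p = 0.0254) and Zyg11b by 0.61 (limma adjusted p = 0.00438). Atg12 also fell (-0.46). The genes that rose were Trim65, a ligase that acts on MDA5 (0.63, limma adjusted p = 0.0140), the stress granule gene G3bp1 (0.49), Rnf26 (0.40) and Ppp1cc (0.35). None was higher (0) with pristine PEEK replicate 2 or modified PEEK replicate 3 dropped, 1 with pristine PEEK replicate 1 or 3 dropped, and 2 with modified PEEK replicate 2 dropped. Scaled to the spikes, 7 were higher and 3 lower. Usp18, Isg15 and Herc6 kept their calls in each fit without 1 array and on the spike scale, and Zyg11b in each fit without 1 array but not on the spike scale (-0.37, adjusted p = 0.159). Among the fits without 1 array Trim25 passed only with modified PEEK replicate 3 dropped (adjusted p otherwise as high as 0.0906). Among them Atg12 passed only with modified PEEK replicate 1 dropped.

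Among 28 genes of STING traffic and cGAMP handling, 5 fell and 1 rose, with a median of -0.16. Rhbdf2, encoding the inactive rhomboid iRhom2, fell by 0.89 (limma adjusted p = 0.000923), and Npc1, the lysosomal cholesterol transporter gene, by 0.52 (limma adjusted p = 0.0107). Abcc1 (-0.47), Lrrc8a (-0.46) and Yif1a (-0.42) were the others lower. Slc19a1, a folate carrier that also imports cyclic dinucleotides, rose by 0.41 (limma adjusted p = 0.0273). Rhbdf2 kept its call in each fit without 1 array, and Npc1 in each but that without pristine PEEK replicate 2 (adjusted p = 0.0521). With pristine PEEK replicate 2 dropped 1 gene was lower, and with replicate 1 or 3 of pristine PEEK or 2 or 3 of modified PEEK dropped 2 were. The number was 1 when scaled to the spikes and 12 with an intensity trend. Among the fits without 1 array Slc19a1 kept its call only without modified PEEK replicate 3.

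Among 19 genes of nucleases and other limits on self nucleic acids, 3 rose and 4 fell, with a median of 0.0227. The higher genes were the subunits of RNase H2, which removes ribonucleotides from DNA: Rnaseh2b by 0.56, Rnaseh2a by 0.50 and Rnaseh2c by 0.38 (limma adjusted p = 0.0276, 0.0397 and 0.0420). Of these, 1 passed without modified PEEK replicate 2 and 0 when any other single array was left out. Pld3, a lysosomal exonuclease gene, fell by 0.76 (limma adjusted p = 0.00507). Adar, the RNA-editing enzyme that keeps self RNA from MDA5 (-0.35), Pld4 (-0.37) and Rnaset2a (-0.37) also fell. Rnaset2a has a near-identical copy, Rnaset2b, so its value is uncertain. Samhd1, which depletes deoxynucleotides, did not pass (9.29 ± 0.07 and 9.28 ± 0.03; SD, n = 3). Pld3 kept its call in each fit without 1 array, Adar only without modified PEEK replicate 1, and Pld4 and Rnaset2a in none. The number lower was 3 without modified PEEK replicate 1, 1 without any other array and 0 when scaled to the spikes. Those 3 include a gene that was not called with all arrays.

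Of 10 genes of cell death that act with Zbp1, 2 were lower and 0 higher, with a median of -0.0539. Mlkl, the pore-forming effector of necroptosis, fell from 8.15 ± 0.03 to 7.38 ± 0.15 (SD, n = 3; -0.78, limma adjusted p = 0.00241), and Nlrp3 fell by 0.43. With limma at an unadjusted p under 0.05, and with an ordinary t statistic, 0 were higher as well. Ripk3, the kinase between Zbp1 and Mlkl, was at 7.85 ± 0.03 and 7.83 ± 0.02 and did not pass (limma adjusted p = 0.934). Mlkl kept its call in each fit without 1 array but not on the spike scale (-0.53, adjusted p = 0.0648). Among the fits without 1 array Nlrp3 kept its call only without modified PEEK replicate 1, so the number lower was 1 without any other array.

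Interferon genes, their receptors and signal transducers were the list with the fewest calls, 1 lower and 0 higher of 26, with a median of 0.0784. That is 3.85% beside 10.4% of all genes, an imprecise share since it rests on 1 call. In the other pathway lists the share passing ran from 18.5% to 36.8%. By mean signal 6 of the 26 were below background on both surfaces. Ifnb1, encoding interferon beta, was next to it at 4.01 ± 0.07 and 3.97 ± 0.34 (SD, n = 3; limma adjusted p = 0.919). Ifnar2, a receptor chain gene, was at 10.14 ± 0.08 and 10.20 ± 0.06 (SD, n = 3) and did not pass. Stat2, which carries the signal of the receptor to the nucleus, fell by 0.68 (limma adjusted p = 0.00550) and kept its call in each fit without 1 array, but not on the spike scale (-0.44, adjusted p = 0.111). By limma at an unadjusted p under 0.05, 2 of the 26 were higher and 3 lower, and with an ordinary t statistic 0 and 1 passed after adjustment.

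**Figure D3:**
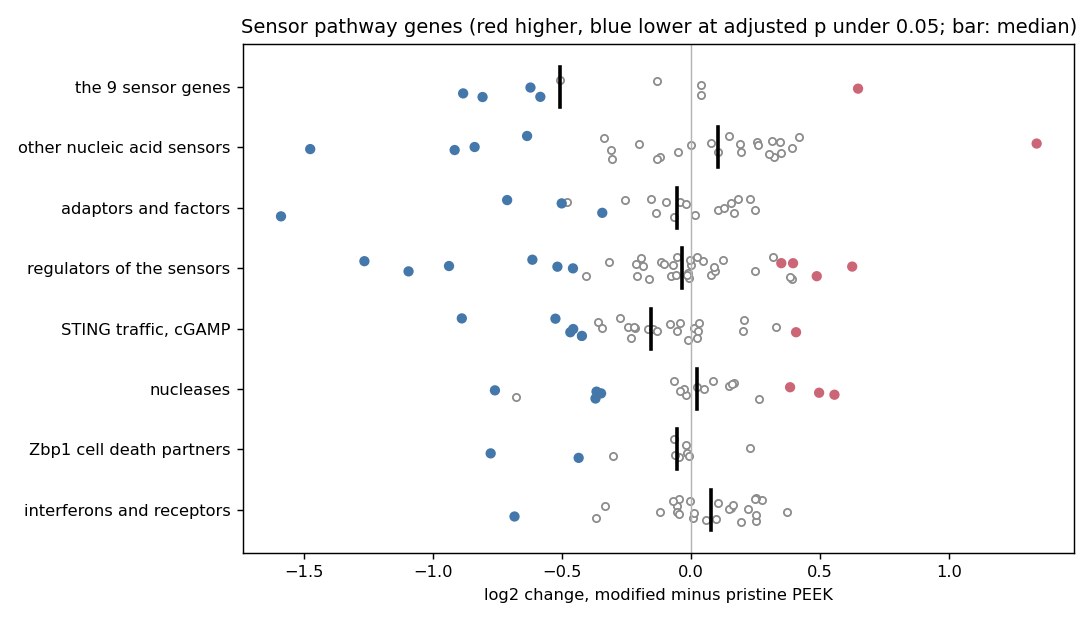
Log2 change, modified minus pristine PEEK (x axis), of each measured gene of the sensor list and of 7 pathway lists (y axis), with red points higher and blue points lower at an adjusted p under 0.05 and a bar at each list's median. The median of the sensor list is -0.51, and those of the pathway lists run from -0.16 to 0.11.

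**Figure D4:**
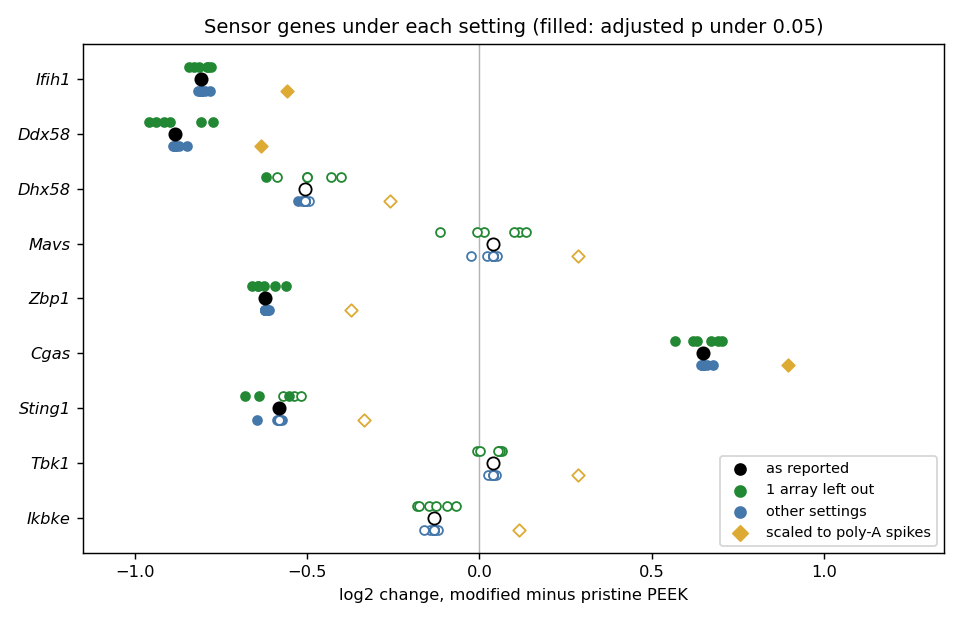
Log2 change, modified minus pristine PEEK (x axis), of each measured sensor gene (y axis) as reported, with 1 array left out, under the other alternatives and scaled to the poly-A spikes, with a point per fit that is filled where the adjusted p was under 0.05. All points of Ifih1, Ddx58 and Cgas are filled, those of Sting1, Zbp1 and Dhx58 are filled in part, and those of Mavs, Tbk1 and Ikbke in none.

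The element printed above was counted by gene. Of 798 genes that fell and had a promoter window, 6.64% held the core, as did 3.52% of 852 genes that rose and 3.81% of 14041 that did not pass. In the pathway lists, 4 of 20 genes that fell held it (Isg15, Stat2, Mndal and Pld3), 0 of 7 that rose and 14 of 110 that did not pass. The last group included interferon alpha genes and Eif2ak2. The core was thus also found in genes that did not pass, which does not show that they did not fall. Eif2ak2, for example, was at -0.30 without passing. The part of the element in these changes was not tested. No test was made, since the windows do not cover every start and the sensor genes were chosen with these results known.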

How the data were processed

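Biotin-labelled cDNA from 250 ng total RNA was hybridised to 1 array per sample, per the labels' protocols. The authors deposited log2 signals per probe set, and per the submitters' processing notes RMA was used, with no version given. Values from 0.941 to 12.4 point to the log2 scale. Genes were named through the platform annotation (19572 probe sets with 1 gene, 0 with several), and each of the 55 genes with several probe sets was represented by its brightest on average. The test of modified against pristine PEEK was that of limma 3.58.1 under R 4.3.3 (lmFit, eBayes, no trend, no covariate, two-sided, 4 residual degrees of freedom), with Benjamini-Hochberg adjustment over 19505 genes and a threshold of 0.05. Folds are powers of 2 of log2 changes, and arrays tend to compress ratios. The fit was tested on simulated data with 200 of 19505 genes changed, normal noise and the SDs of the genes shuffled. There it called 20.8% of changes of 0.5 log2, 53.2% of those of 0.8 and 97.6% of those of 2. Here 2027 genes were called, and with fewer changed genes the adjustment is stricter, so these shares are not the power of this comparison. A gene that did not pass may still have changed. The background is the 95th percentile of the mean signals of 1412 receptor genes.

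The sensor genes, the 7 pathway lists (166 measured genes), the markers and the tests were chosen with earlier results of these data known. Named were all sensor genes and, from each list, the 3 largest called changes in each direction and the 2 brightest uncalled genes, though not all are printed. Aim2, Eif2ak2, Tlr3, Irf3, Ripk3, Ifnb1 and the further called genes named where a count was small were chosen after their values were seen, as were the DNA element, the genes whose stretches are printed and the Cgas to Sting1 ratio. So were the pairs of sensor genes whose correlations are printed. Same-numbered samples were not paired by the labels. Alternatives were renormalization, filters on dim genes, averaged probe sets, other variance models, array weights, the replicate block and leaving out each array.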

Additional observations from a re-analysis of the deposited data

How the results depend on the processing

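Ifih1, Ddx58 and Cgas kept their direction and their call in all 18 alternatives, and Zbp1 kept its direction in 17 and its call in 16 of the 17 that gave it a value, since the filter at the median signal removed it. With 1 array left out, the genes passing over all genes were 594 to 903 higher and 548 to 1048 lower, Sting1 changed by -0.68 to -0.52, Dhx58 by -0.62 to -0.40, Mavs by -0.11 to 0.13 and Tbk1 by -0.00794 to 0.0648. In the same fits 1 to 4 adaptor genes were lower, 0 to 3 regulators higher, 0 to 1 STING traffic genes higher and 1 to 7 lower, 0 to 1 nuclease genes higher and 1 to 3 lower, and 1 to 2 Zbp1 partner genes lower, and Ifnb1 changed by -0.24 to 0.0967 and Samhd1 by -0.0411 to 0.0213. Scaled to the poly-A spikes, 1575 genes were higher and 290 lower, 2 sensor genes were lower, Sting1 was at -0.34, Zbp1 at -0.37, Ikbke at 0.12, Aim2 at 0.13, Ifnb1 at 0.20, Ripk3 at 0.23 and Samhd1 at 0.23. There, 6 other sensors and 7 regulators were higher, 3 regulators, 1 adaptor gene and 1 STING traffic gene were lower, and 0 nuclease, 0 Zbp1 partner and 0 interferon list genes were lower. With an intensity trend, 1586 genes were higher and 1719 lower (1580 and 1702 with robust fitting). With either trend, Dhx58 passed at -0.51, 7 other sensors, 2 STING traffic genes and 1 interferon list gene were higher, and 12 STING traffic and 2 interferon list genes were lower.

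Dhx58 also passed after repeated quantile normalization (-0.52, with 3 other sensors higher), with array weights (-0.53, with 5 other sensors higher and Mavs at -0.0242), and at -0.51 without the lowest 25% of genes (6 other sensors higher), without the lowest 50% (8, with 1522 genes lower over all, 11 STING traffic and 2 interferon list genes lower) or without genes below background on both surfaces (7). These filters test fewer genes. Centring on array medians gave 3 STING traffic, 1 nuclease and 1 Zbp1 partner genes lower. With an ordinary t statistic, Sting1 (-0.58) did not pass, 7 other sensors were higher and 0 nuclease genes were, beside 797 genes over all. With the replicate number as a block, 646 genes were higher and 622 lower, Sting1 (-0.58, adjusted p = 0.0642) did not pass, 2 adaptor, 2 STING traffic, 1 nuclease and 1 Zbp1 partner genes were lower, and 1 regulator, 0 STING traffic and 0 nuclease genes were higher. The block changed no other call among the sensor genes. The labels tie same-numbered samples by no more than the number. Their deviations from the surface means correlated at -0.17, -0.16 and 0.0685, and 3 arrays per surface cannot settle whether they shared a batch. The cause of these differences was not tested. Signals near 3.72 are limited by background, which touches Zbp1, Isg15 and Ifnb1 most.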
